A study of Mus musculus with 3 samples.

Results

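The liver sinusoid clears blood through endocytic receptors, and 9 of their genes are described here across the cells of the liver: Stab1, Stab2, Mrc1, Lyve1, Clec4g, Scarf1, Lrp1, Axl and Mertk. They were chosen by name, as receptors of the sinusoidal wall, and are 9 of the 23860 genes that the count tables hold together. All 9 had reads in both libraries. Where a pair of groups held too few UMIs of a member, no ratio is given.

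Sinusoids are lined by a thin, fenestrated endothelium, and the resident macrophages of the liver, the Kupffer cells (KCs), sit on it and reach through it. The endothelium takes up small soluble waste such as hyaluronan, collagen fragments and modified lipoproteins by clathrin-coated pits, whereas KCs engulf larger particles, dying cells included. Stab1 and Stab2 encode the stabilins, Mrc1 the mannose receptor, Lyve1 a hyaluronan receptor, Clec4g the C-type lectin LSECtin and Scarf1 a class F scavenger receptor. Lrp1 encodes a large lipoprotein receptor-related protein for chylomicron remnants and protease complexes. Axl and Mertk encode TAM receptor tyrosine kinases, a family that binds dying cells through the bridging proteins Gas6 and protein S, though not each receptor through both.

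Single liver cells of mice were captured with the BD Rhapsody system, and unique molecular identifiers (UMIs) were counted per gene and cell. The HFHC pool is 1 library of wild-type (WT) and Chi3l1-/- mice fed a high-fat, high-cholesterol diet. The control is 1 library of WT mice that the publication describes as fed a normal chow diet (NCD), both diets for 16 weeks. The study used C57BL/6J mice, mostly male, whose age is not given for these libraries. Chi3l1-/- is a germline deletion in every tissue, the genotypes of single pool cells were not analysed here, and how many animals went into each library is not stated. The control is titled MCD in its label and its table header names the library APAP0h. It is called the NCD library here, and its cells those of NCD livers, because the number of its cells within the limits on genes and mitochondrial reads, with cells at a limit also left out, 23312, equals the number in the publication for NCD livers. The same count for the pool was 19599 cells. That does not match the publication, where the cells of both genotypes together are fewer, so the match holds for the control library alone. The label speaks of parenchymal cells and the publication of collagenase-released non-parenchymal cells (NPCs), and both libraries held hepatocytes.

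With 1 library for each diet there was no replicate. No test was made and no p-value is given, and diet, genotype mixture, capture and library cannot be told apart. Values carry exact 95% intervals (Poisson for UMIs, binomial for shares), which cover counting error only. The tables list 30734 cells with 53720863 UMIs for NCD livers and 21601 cells with 71981673 UMIs for the pool, of which 23346 and 19625 cells were kept, with medians of 1322.5 and 1622 UMIs. The median mitochondrial share of kept cells was 5.95% in NCD livers and 1.11% in the pool. The libraries shared 756 cell indices, 507 of them among kept cells. Scrublet called 8.17% of the kept NCD cells and 1.997% of the kept pool cells doublets, and these stayed in. Chil1, the gene deleted in a part of the pool and also known as Chi3l1, was compared in neutrophils, monocytes and macrophages only. It was highest in neutrophils, at 597 CPM (UMIs per 1000000 UMIs of all genes in a class) in NCD livers and 218 CPM in the pool. KCs held 3.75 and 4.08 CPM.

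Cells were clustered without the 9 genes, so that their division was not built into the classes, and clusters were named by markers among which none of the 9 stood. The names mean "like" that cell type. Endothelial-like cells (ECs) numbered 2419 in NCD livers and 618 in the pool, KC-like cells 3376 and 525, and dendritic-like cells (DCs) 1288 and 680. Doublet calls made up 12.3% and 0.162% of ECs, 15.9% and 6.86% of KCs and 7.38% and 1.76% of DCs. The clusters were named by these lists, so the sums are a description. The 18 endothelial markers summed to 36444 and 24674 CPM in ECs but to 1135 and 1011 CPM in KCs, and the 14 KC markers to 40620 and 30076 CPM in KCs but to 968 and 470 CPM in ECs, with no defining marker at 0 in its own class. Signs of other cells were present too. The 12 hepatocyte markers summed to 1858 CPM in ECs of NCD livers and 8732 CPM in those of the pool, and their part in the results was not tested.

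The promoters are shown for members that stood on the endothelial side (Stab1, Clec4g), on both sides (Mrc1) and on the KC side (Lrp1, Axl), since the division of these genes between cell types is the main pattern in the data. RefSeq tables for GRCm38.p6 held the promoters of 7 of the 9 members, and Lyve1 and Scarf1 were not among them. Each sequence is written 5′ to 3′ in the direction of the gene and ends at the base before its start in RefSeq, or in GENCODE where that lies further upstream. Capitals mark matches on either strand to GAGGAA (the core bound by PU.1 and other ETS factors), TGCTGA (bound by MAF factors), TAAACA (by FOX factors) or AGATAA (by GATA factors), and these matches do not overlap. The Stab1 promoter is at chr14:31168642-31168891 (minus strand), Clec4g at chr8:3720652-3720901 (minus), Mrc1 at chr2:14229164-14229391 (plus), Lrp1 at chr10:127621149-127621398 (minus) and Axl at chr7:25788734-25788983 (minus).
Stab1: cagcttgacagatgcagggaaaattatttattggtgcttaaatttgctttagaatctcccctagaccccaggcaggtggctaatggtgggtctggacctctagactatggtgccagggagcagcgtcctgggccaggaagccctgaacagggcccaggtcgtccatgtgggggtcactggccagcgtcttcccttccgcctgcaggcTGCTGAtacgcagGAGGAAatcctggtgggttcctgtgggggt
Clec4g: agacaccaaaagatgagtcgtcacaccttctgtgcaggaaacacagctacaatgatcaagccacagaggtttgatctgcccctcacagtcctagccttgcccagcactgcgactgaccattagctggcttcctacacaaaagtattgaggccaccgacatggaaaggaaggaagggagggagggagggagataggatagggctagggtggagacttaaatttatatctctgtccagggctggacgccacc
Mrc1: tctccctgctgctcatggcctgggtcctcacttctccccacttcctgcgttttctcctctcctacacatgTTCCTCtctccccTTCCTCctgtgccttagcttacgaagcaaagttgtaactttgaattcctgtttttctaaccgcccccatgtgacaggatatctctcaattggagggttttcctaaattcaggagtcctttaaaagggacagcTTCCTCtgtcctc
Lrp1: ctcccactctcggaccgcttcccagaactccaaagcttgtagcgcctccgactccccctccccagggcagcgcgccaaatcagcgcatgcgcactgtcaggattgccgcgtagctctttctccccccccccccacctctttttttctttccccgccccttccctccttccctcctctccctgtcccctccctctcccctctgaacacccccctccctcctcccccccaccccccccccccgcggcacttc
Axl: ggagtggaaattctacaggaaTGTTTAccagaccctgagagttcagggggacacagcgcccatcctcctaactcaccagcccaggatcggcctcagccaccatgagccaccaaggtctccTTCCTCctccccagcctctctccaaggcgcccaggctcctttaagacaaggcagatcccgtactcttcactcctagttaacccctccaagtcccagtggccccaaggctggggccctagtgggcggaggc
Among all 32536 promoters of the table, in windows of the 250 bases before the start, GAGGAA was found in 23.4%, TGCTGA in 16.1%, TAAACA in 12% and AGATAA in 9.97%. Of the 7 promoters of the members, 3 held GAGGAA (Stab1, Mrc1 and Axl), 1 held TGCTGA (Stab1), 1 held TAAACA (Axl) and 0 held AGATAA. Mrc1 had 3 matches to GAGGAA, the nearest 35 to 30 bases before its RefSeq start, and Stab1 had 1 match 30 to 25 bases before the start. GAGGAA was thus found in members of each side of the sinusoid. The matches are descriptions of letters and not of binding.

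Of the members, 5 (Stab1, Stab2, Lyve1, Clec4g and Scarf1) were more than 2-fold higher in ECs than in KCs in both libraries, and Axl and Lrp1 were more than 2-fold lower. Mrc1 was nearly 2-fold higher in ECs and Mertk lower, past 2-fold only in the pool. DCs were low for all 9. Ratios of CPM are log2 with 1 UMI added to each side. Among the 10151 genes with at least 100 UMIs in both classes of NCD livers together, 19.0% were past 2-fold higher in ECs and 14.4% past 2-fold lower. Among 8479 such genes of the pool, 22.5% were higher and 13.9% lower. Against these shares stood 5 of 9 members higher in each library, and 2 of 9 lower in NCD livers and 3 of 9 in the pool. The median ratio of the members was 1.71 in NCD livers and 1.66 in the pool, where all genes tested had medians of 0.20 and 0.249. The members were chosen with earlier results of these data known, so these shares do not set them apart from other lists.

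**Figure D1:**
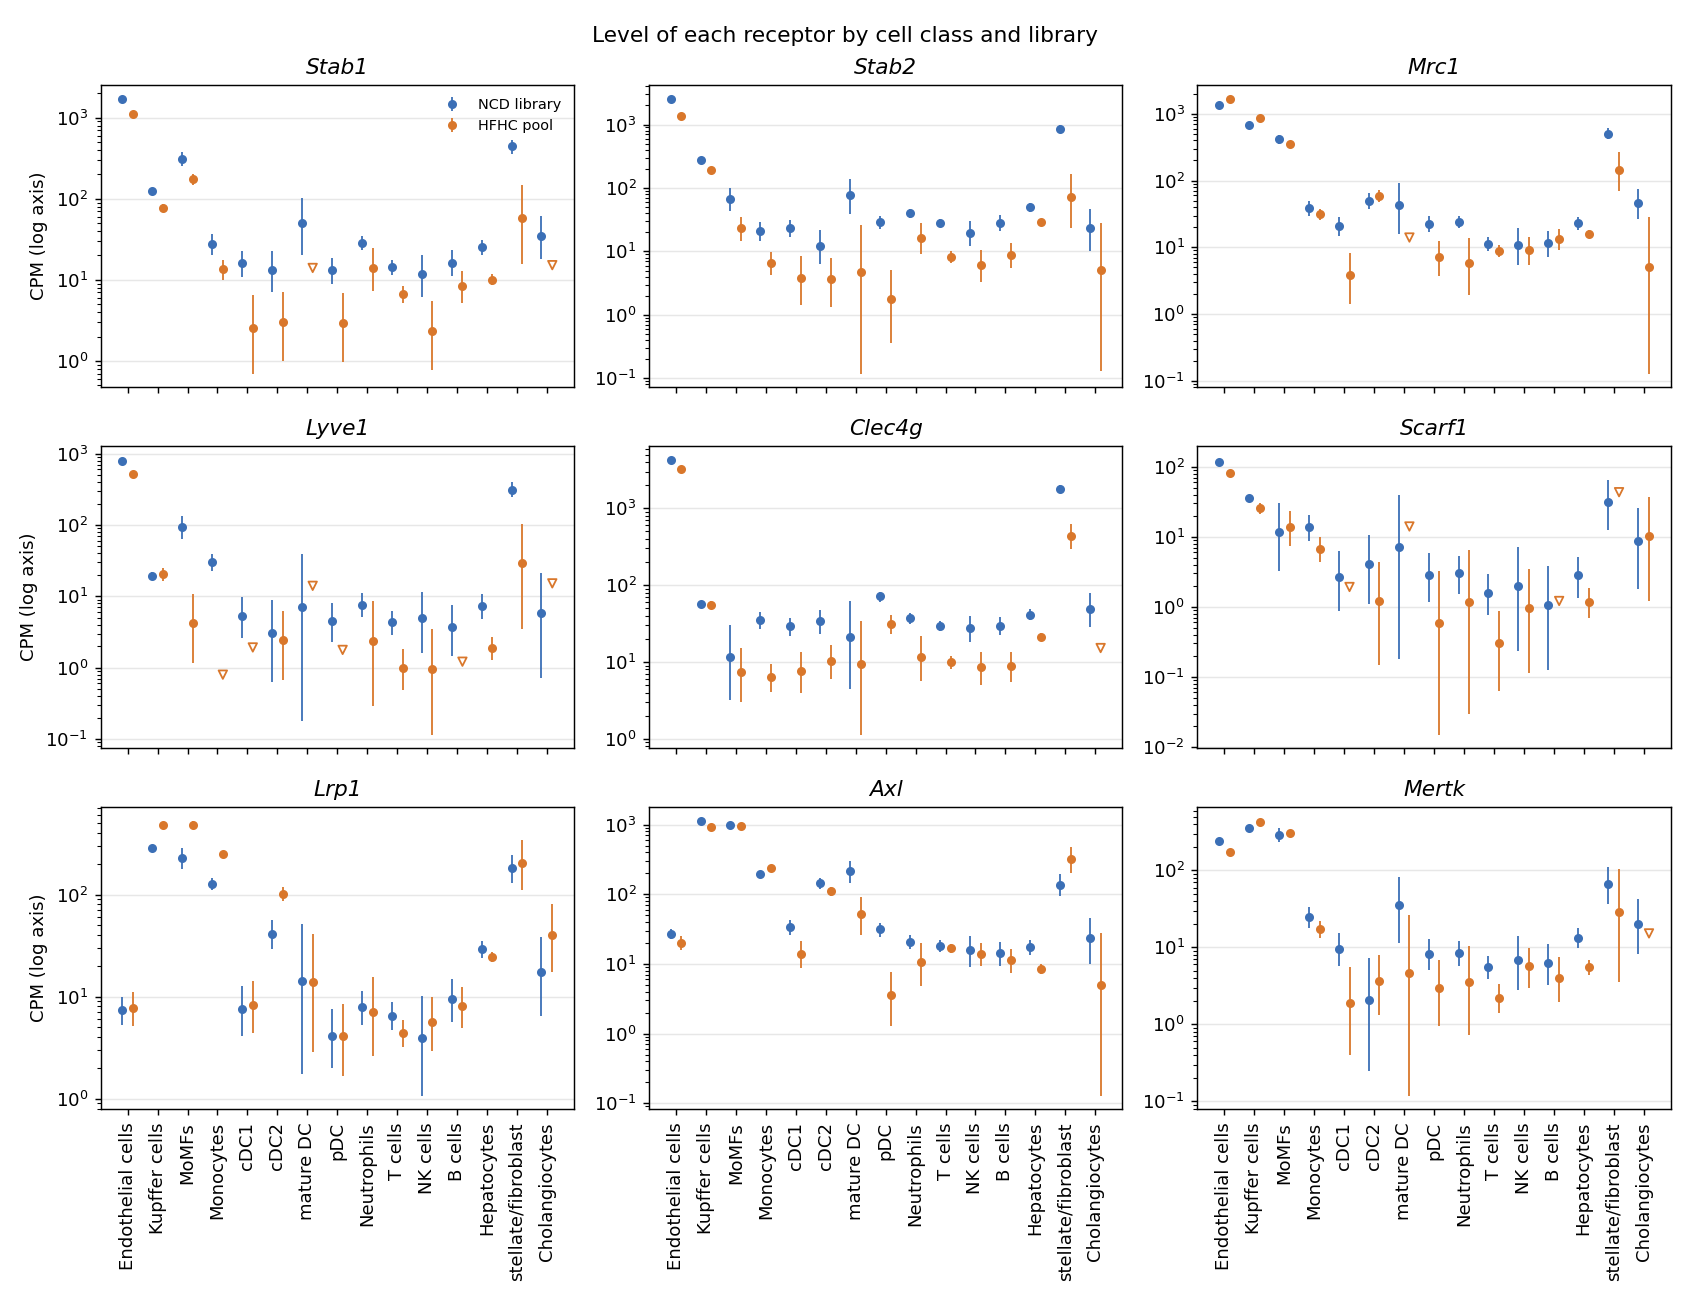
Level of each of the 9 receptor genes (CPM, log axis) by cell class, with a panel for each gene, points for NCD livers and the HFHC pool, and bars for the exact 95% interval for counting error; an open triangle marks a class with no UMI, drawn at the level of 3 counts. Stab1, Stab2, Lyve1 and Clec4g peak in endothelial cells, Axl and Lrp1 in Kupffer cells and MoMFs, and Clec4g lies at 4240 and 3208 CPM in endothelial cells against 56.9 and 55.2 CPM in Kupffer cells. Most Clec4g UMIs of Kupffer cells lay in a single cluster, of 99 and 24 cells.

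Clec4g (chr8:3707064-3720651, minus strand; GENCODE vM21 positions on GRCm38 here and below) had 1 of the widest divisions. Its level in ECs was 4240 CPM (4186 to 4295) in NCD livers and 3208 CPM (3152 to 3266) in the pool, with a UMI in 94.9% and 98.7% of ECs. In KCs it was 56.9 CPM (53.4 to 60.7) and 55.2 CPM (48.5 to 62.6), with a UMI in 11.3% and 9.71% of cells. The KC value rested largely on a single cluster. In NCD livers its 99 cells, 73 of them called doublets, held 629 of the 957 Clec4g UMIs of KCs. In the pool its 24 cells held 211 of 244. T cells, which should lack this lectin, held 29.4 and 9.94 CPM, with a UMI in 4.79% and 2.75% of cells. The log2 ratio of ECs over KCs was 6.22 (6.13 to 6.31) in NCD livers and 5.85 (5.68 to 6.05) in the pool, and over the alternatives it ran from 5.39 to 7.89 and from 5.07 to 9.18. Of the Clec4g UMIs in kept cells, ECs held 83.9% in NCD livers and 88.8% in the pool, although they held 11.0% and 7.28% of the UMIs of all genes.

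Lyve1 (chr7:110850607-110863239, minus strand), the hyaluronan receptor that also marks lymphatic vessels, also stood on the endothelial side. Its level was 799.6 CPM (776 to 824) and 527 CPM (504 to 551) in ECs and 19.6 CPM (17.5 to 21.8) and 20.4 CPM in KCs, at log2 ratios of 5.35 and 4.68 that ran from 4.76 to 6.21 and from 4.25 to 8.05 over the alternatives. The KC value rested on few cells. In NCD livers 329 Lyve1 UMIs lay in 183 of 3376 KCs, and in the pool 90 UMIs lay in 19 of 525 KCs, 41 of them in 2 cells. In monocyte-derived macrophages (MoMFs) of NCD livers all 32 Lyve1 UMIs lay in 1 of 92 cells, so that the 93.96 CPM of this class describes a single cell. Monocytes likewise had 45 of 51 UMIs in 2 of 460 cells of NCD livers and 0 UMIs in 604 cells of the pool.

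The stabilins stood on the endothelial side as well, but with a larger remainder in KCs. Stab1 (chr14:31139013-31168641, minus strand) was at 1681 CPM (1647 to 1716) in ECs of NCD livers and 1116 CPM (1083 to 1150) in those of the pool, against 125 CPM (120 to 131) and 76.8 CPM (68.8 to 85.4) in KCs. Stab2 (chr10:86841198-87008025, minus strand) was at 2516 CPM (2474 to 2559) and 1380 CPM (1343 to 1418) in ECs, against 280 CPM (272 to 288) and 192 CPM (179 to 205) in KCs. The log2 ratios of ECs over KCs were 3.75 and 3.86 for Stab1 and 3.17 and 2.85 for Stab2. Over the alternatives Stab1 ran from 3.55 to 3.97 and from 3.56 to 4.76, and Stab2 from 2.97 to 3.35 and from 2.58 to 3.15. Both KC levels lay well above T cells, where Stab1 was at 14.3 and 6.63 CPM and Stab2 at 27.8 and 8.23 CPM. Of the UMIs in kept cells, KCs held 16.5% of Stab1 and 22.8% of Stab2 in NCD livers, and 6.45% and 12.1% in the pool. Cells left out of the pool held 26.3% of its Stab1 UMIs and 38.1% of its Stab2 UMIs, against 4.69% and 4.89% in NCD livers. Stellate cells and fibroblasts of NCD livers, 41 cells with 0.456% of all UMIs, held 0.786% of Stab1 and 0.940% of Stab2. In the pool 11 such cells with 0.133% of all UMIs held 0.0761% and 0.0714%. MoMFs were higher than KCs for Stab1, at 308 and 174 CPM, but lower for Stab2, at 67.5 and 23.3 CPM.

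Scarf1 (chr11:75513540-75526582, plus strand), a receptor for modified lipoproteins and complement-tagged dying cells, was at 117 CPM (108 to 126) in ECs of NCD livers and 80.5 CPM (71.7 to 90.1) in pool ECs. In KCs it was at 35.6 CPM (32.8 to 38.6) and 25.4 CPM (20.9 to 30.5). The log2 ratios were 1.71 and 1.66, past 2-fold in both libraries and the smallest among the 5 members of the endothelial side. T cells held 1.59 and 0.301 CPM, DCs 3.14 and 0.586 CPM and MoMFs 11.7 and 13.8 CPM, each under the KC level of the same library.

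Mrc1 (chr2:14229392-14332057, plus strand) was shared by ECs and KCs, with ECs ahead. Its level was 1337 CPM (1307 to 1368) and 1645 CPM (1604 to 1686) in ECs and 676 CPM (663 to 688) and 871 CPM in KCs. A UMI was found in 77.1% and 94.2% of ECs and in 79.9% and 77.1% of KCs, at median depths of 1996 and 5719.5 UMIs in ECs and 4556.5 and 8745 UMIs in KCs. In cells of at least 2000 UMIs, each thinned to 2000, the share was 90.6% and 89.6% in ECs and 70.9% and 69.8% in KCs. These were 1205 and 578 ECs and 2667 and 440 KCs, and shallower cells were left out. The mannose receptor was thus read in most of these cells of both classes at equal depth. The log2 ratios of 0.985 and 0.917 lay just inside the 2-fold limit, and over the alternatives they ran from 0.79 to 1.12 and from 0.63 to 1.37. MoMFs held 414 and 353 CPM of Mrc1, monocytes 38.5 and 31.4 CPM and T cells 11.1 and 8.94 CPM.

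**Figure D2:**
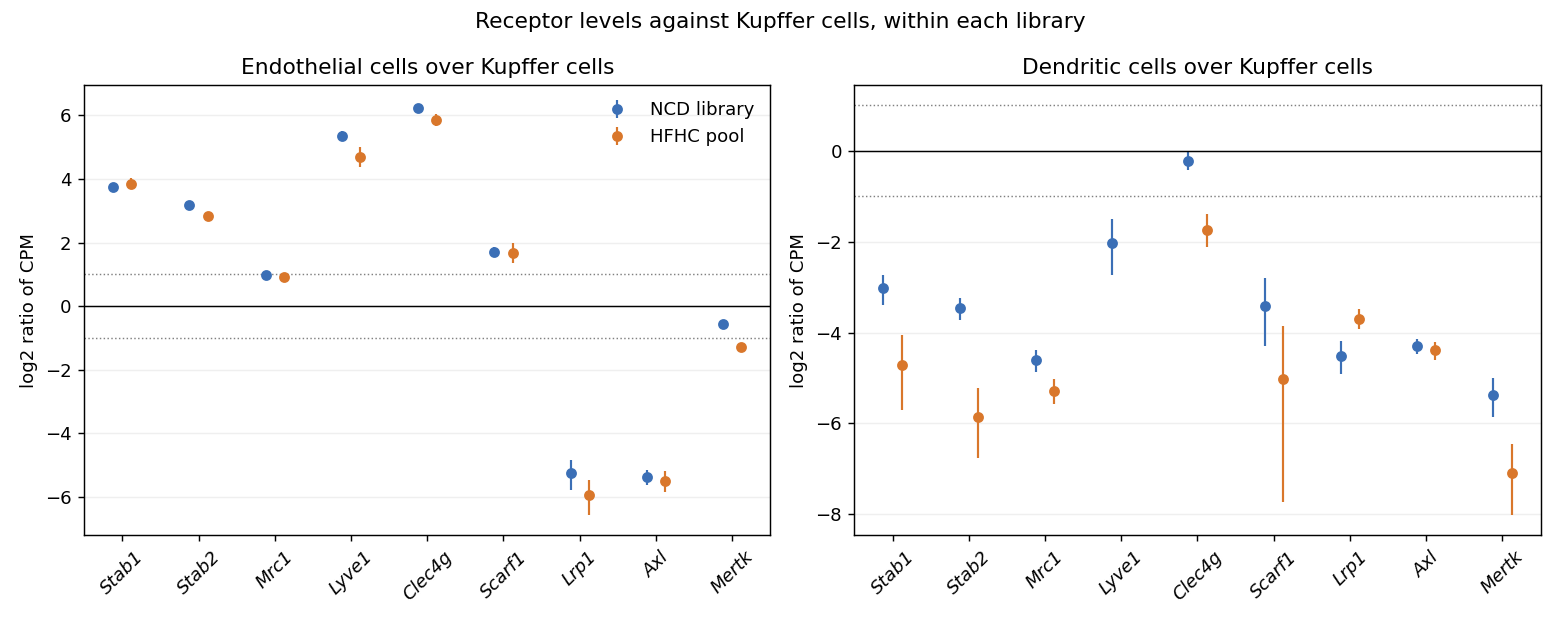
Log2 ratio of CPM in endothelial cells over Kupffer cells and in dendritic cells over Kupffer cells for the 9 genes, a point for each library with its 95% interval for counting error, and dotted lines at 2-fold. Clec4g, Lyve1, Stab1, Stab2 and Scarf1 lie above the upper line for endothelial cells over Kupffer cells in both libraries, and no gene lies above it for dendritic cells.

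Mertk (chr2:128698956-128802894, plus strand) was read in both classes, with KCs ahead. It stood at 354 CPM (345 to 363) in KCs of NCD livers and 423 CPM (404 to 443) in those of the pool, and at 239 CPM (226 to 252) and 175 CPM (162 to 189) in ECs. The log2 ratio of ECs over KCs was -0.57 in NCD livers and -1.27 in the pool, where it passed 2-fold, although over the alternatives it ran from -1.54 to -0.94 there. ECs that held no UMI of the KC markers Clec4f, Vsig4, Timd4, Cd5l and Marco kept 245 and 169 CPM of Mertk, against 5.57 and 2.21 CPM in T cells. MoMFs were close to KCs in NCD livers, at 291 CPM, and at 302 CPM in the pool, and monocytes held 24.9 and 17.3 CPM. The MoMF class itself held 18293 and 11536 CPM of the 14 KC markers, and their part in its values set beside KCs was not tested.

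The other TAM receptor, Axl (chr7:25757273-25788705, minus strand), was not shared in this way. KCs held 1125 CPM (1109 to 1141) and 913 CPM (885 to 941), and ECs 26.9 CPM (22.7 to 31.6) and 20.1 CPM (15.8 to 25.1), close to the 18.1 and 16.8 CPM of T cells. In NCD livers ECs with at least 2 UMIs of Clec4f, Vsig4, Timd4, Cd5l and Marco together, 149 cells, held 108 CPM (80.1 to 143) of Axl. Those with none of these UMIs held 19.9 CPM. The pool did not show this step, with 26.8 CPM (9.85 to 58.4) in 33 such ECs and 20.1 CPM in those with none. An EC cluster of 85 and 11 cells, 45 and 1 of them called doublets, was led by Siglech, Cybb and Cd74 over other ECs. It held 5368 and 1201.5 CPM of the 14 KC markers, and 40 of the 147 EC Axl UMIs of NCD livers and 5 of 76 in the pool. The log2 ratios of ECs over KCs were -5.38 and -5.49. MoMFs stood at 987 and 966.5 CPM, near KCs, and monocytes at 197 and 238 CPM. A single monocyte cluster, of 167 and 292 cells and with MoMFs as its second type by markers, held 280 of the 333 monocyte Axl UMIs of NCD livers and 823 of 895 in the pool. It was at 361 and 408 CPM, and the other clusters of monocytes were at 67.1 and 43.7 CPM and at 30.7 and 30.8 CPM. Of the Axl UMIs in kept cells, KCs held 92.6% in NCD livers and 61.2% in the pool, where MoMFs held 13.8% and monocytes 13.6%. The cells left out of the pool held 70.6% of the Axl UMIs of that library and are not in these shares.

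Lrp1 (chr10:127538161-127621148, minus strand) followed Axl in its division. It was at 283 CPM (275 to 291) and 482 CPM (462 to 503) in KCs, and at 7.32 CPM (5.23 to 9.96) and 7.66 CPM (5.13 to 11.0) in ECs, near the 6.52 and 4.42 CPM of T cells. The EC cluster led by Siglech held 10 of the 40 EC Lrp1 UMIs of NCD livers and 13 of 29 in the pool. The log2 ratios of ECs over KCs were -5.24 and -5.93, and over the alternatives they ran from -5.9 to -4.89 and from -7.11 to -5.58. Lrp1 differed from Axl in its spread over the monocyte line, with 128 and 252 CPM in monocytes and 226 and 483 CPM in MoMFs. Of the Lrp1 UMIs in kept cells, KCs held 87.2% (86.2 to 88.0) in NCD livers and 49.7% (48.2 to 51.2) in the pool, where monocytes held 22.1%, MoMFs 10.6% and hepatocytes 8.73%, and 63.3% of the Lrp1 UMIs of the pool lay in cells left out. KCs made up 33.9% of all UMIs of NCD livers and 8.49% of those of the pool, and the shares of a gene's UMIs move with these numbers of cells, whereas CPM within a class do not.

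**Figure D3:**
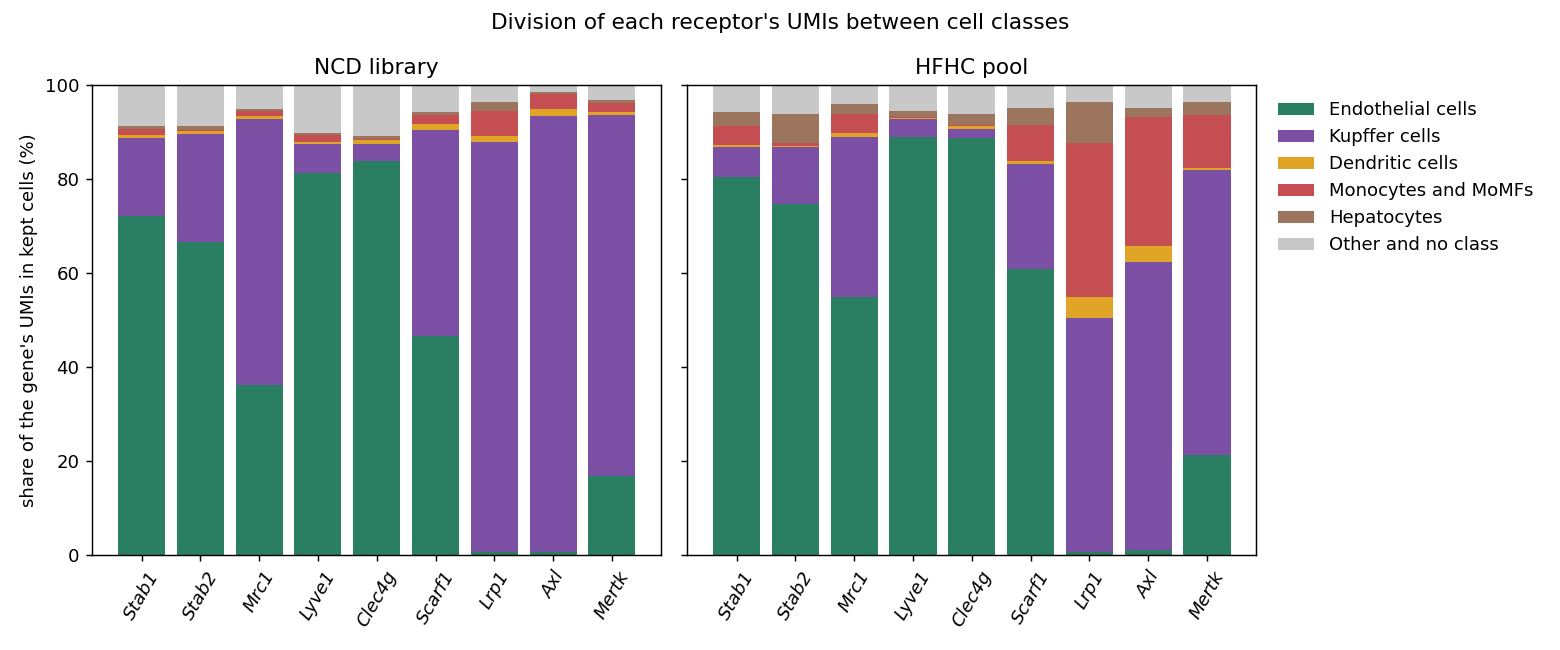
Share of each gene's UMIs (percent of the gene's UMIs in all kept cells) by cell class, stacked to 100%, with a bar for each library. Endothelial cells hold 83.9% and 88.8% of Clec4g, Kupffer cells 92.6% and 61.2% of Axl, and for Mrc1 the endothelial share is 36.3% in NCD livers and 54.9% in the HFHC pool.

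DCs carried little of the 9 receptors. Among 9939 genes tested in NCD livers 14.8% were past 2-fold higher in DCs than in KCs and 14.4% lower, and among 8313 genes in the pool 14.4% were higher and 13.4% lower. Of the members 0 of 9 were higher in NCD livers and 8 of 9 lower, all but Clec4g, with a median ratio of -3.47 where all genes had 0.137. Over the alternatives Lyve1 ran there from -2.99 to 0.085, Stab1 from -4.16 to -1.39 and Stab2 from -4.80 to -1.93. In the pool 0 of 8 were higher and 8 of 8 lower, with a median of -4.87 against 0.194, and Lyve1 had too few UMIs for a value. Clec4g, counted as lower there, ran from -2.54 to 1.29 over the alternatives, so its side was not held. DC levels of Stab1 (15.2 and 2.74 CPM), Stab2 (25.1 and 3.13 CPM) and Lyve1 (4.62 and 0.782 CPM) were under those of T cells in the pool. In NCD livers this held for Stab2 only, while Stab1 was at 15.2 CPM against 14.3 CPM and Lyve1 at 4.62 CPM against 4.30 CPM. Whether these DC levels are background was not tested. Mature DCs of NCD livers, 33 cells, held 49.9 CPM (20.1 to 103) of Stab1 and 78.4 CPM (39.1 to 140) of Stab2, on 7 and 11 UMIs. Those of the pool held 0 and 4.68 CPM.

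Axl, Lrp1 and Mrc1 differed between DC subsets. Type 2 conventional DCs (cDC2) held 143 CPM (120 to 169) of Axl in NCD livers and 111 CPM (95.6 to 128) in the pool, against 33.8 and 14.1 CPM in type 1 conventional DCs (cDC1) and 31.3 and 3.55 CPM in plasmacytoid DCs (pDCs). The log2 ratio of cDC1 over cDC2 was -2.07 and -2.92. Lrp1 was at 40.9 CPM (29.2 to 55.7) and 101 CPM (86.6 to 118) in cDC2, and at 7.51 and 8.32 CPM in cDC1 and 4.12 and 4.14 CPM in pDCs, the last near T cells. Mrc1 was at 50.1 and 58.3 CPM in cDC2, 20.9 and 3.84 CPM in cDC1 and 22.7 and 7.09 CPM in pDCs. All 3 genes thus stood higher in cDC2 than in cDC1, and cDC2 share markers with monocytes and macrophages. A small class of mature DCs, 33 and 35 cells, had 214 and 51.5 CPM of Axl.

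Clec4g was the exception among DCs of NCD livers. Its ratio of DCs over KCs was -0.22 (-0.43 to -0.03) there, but -1.74 (-2.13 to -1.39) in the pool, past 2-fold lower like the other members tested. Among DC subsets pDCs carried it highest, at 71.2 CPM (61.0 to 82.7) and 31.3 CPM (23.5 to 41.0), with a UMI in 16.9% and 14.6% of pDCs. In cells of at least 2000 UMIs, thinned to that depth, a UMI was found in 11.8% and 6.20% of pDCs, against 4.75% and 1.66% of T cells. T cells and B cells of NCD livers held 29.4 CPM each, and cDC1 and cDC2 held 29.0 and 33.8 CPM. These conventional DCs lay at the lymphocyte level, and pDCs lay above it in both libraries. The 18 endothelial markers were also higher in pDCs, at a sum of 713.6 and 437.9 CPM against 466.5 and 271.1 CPM in T cells, and 10.8% and 4.23% of pDCs were called doublets. Their part in the Clec4g level was not tested. With clusters rich in doublets left out, an alternative chosen after seeing the data, the ratio to KCs was 1.40 in NCD livers and 1.29 in the pool. This took out clusters of both classes, from 3376 to 2791 KCs and from 1288 to 1209 DCs in NCD livers.

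The low KC levels of the endothelial genes were read again in KCs that held no UMI of the endothelial markers Kdr, Ptprb, Egfl7, Tie1 and Gpr182. These were 2632 of 3376 cells in NCD livers and 434 of 525 in the pool, and no other marker was part of this check. The list in the design of this check held Pecam1, Cdh5 and Eng in place of Gpr182, and that list was not used. Stab1 stayed at 112 and 59.9 CPM, Stab2 at 259 and 168 CPM and Scarf1 at 35.1 and 24.4 CPM, all above T cells. Clec4g was at 18.1 and 5.27 CPM and Lyve1 at 10.4 and 2.22 CPM in the same cells. For Clec4g this was under the T-cell level of 29.4 and 9.94 CPM. Lyve1 lay above the T-cell level of 4.30 CPM in NCD livers, and in the pool, on 8 UMIs, its interval (0.957 to 4.37) overlapped that of T cells at 1.004 CPM (0.482 to 1.85). In the 215 and 48 KCs with at least 2 UMIs of these markers Clec4g stood at 454.5 and 593 CPM and Lyve1 at 108 and 220 CPM, the stabilins at 256 and 236 CPM (Stab1) and 502 and 394 CPM (Stab2), and Mrc1 at 681 and 856 CPM, against 676 and 865 CPM without such UMIs. These KCs were picked by endothelial markers, so their higher levels of Clec4g, Lyve1 and the stabilins are a description and no test. In KCs with no such UMI the stabilins and Scarf1 lay above T cells in both libraries and Lyve1 in NCD livers. A KC cluster of 99 and 24 cells, in which 73 and 0 cells were called doublets, held 944 and 1391 CPM of Clec4g, and the largest KC cluster, 2007 and 301 cells, held 17.5 and 6.93 CPM.

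Between the libraries no member was past 2-fold in ECs or KCs. In ECs 0 of the 8 members with enough UMIs were past 2-fold, where 9.87% of 8674 genes were past 2-fold higher in the pool and 4.25% lower. In KCs 0 of 9 were past 2-fold, where 5.09% of 9582 genes were higher and 3.26% lower, and the count was 1 or 2 under 4 of the alternatives. A count of 0 among so few genes is near what these shares give and is not read as a result about the members. In DCs 1 of 5 was higher and 2 of 5 lower, where 3.36% of 8415 genes were higher and 2.85% lower. The median of the members was -0.489 in ECs, -0.039 in KCs and -0.394 in DCs, beside medians of -0.019, 0.026 and 0.031 over all genes.

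**Figure D4:**
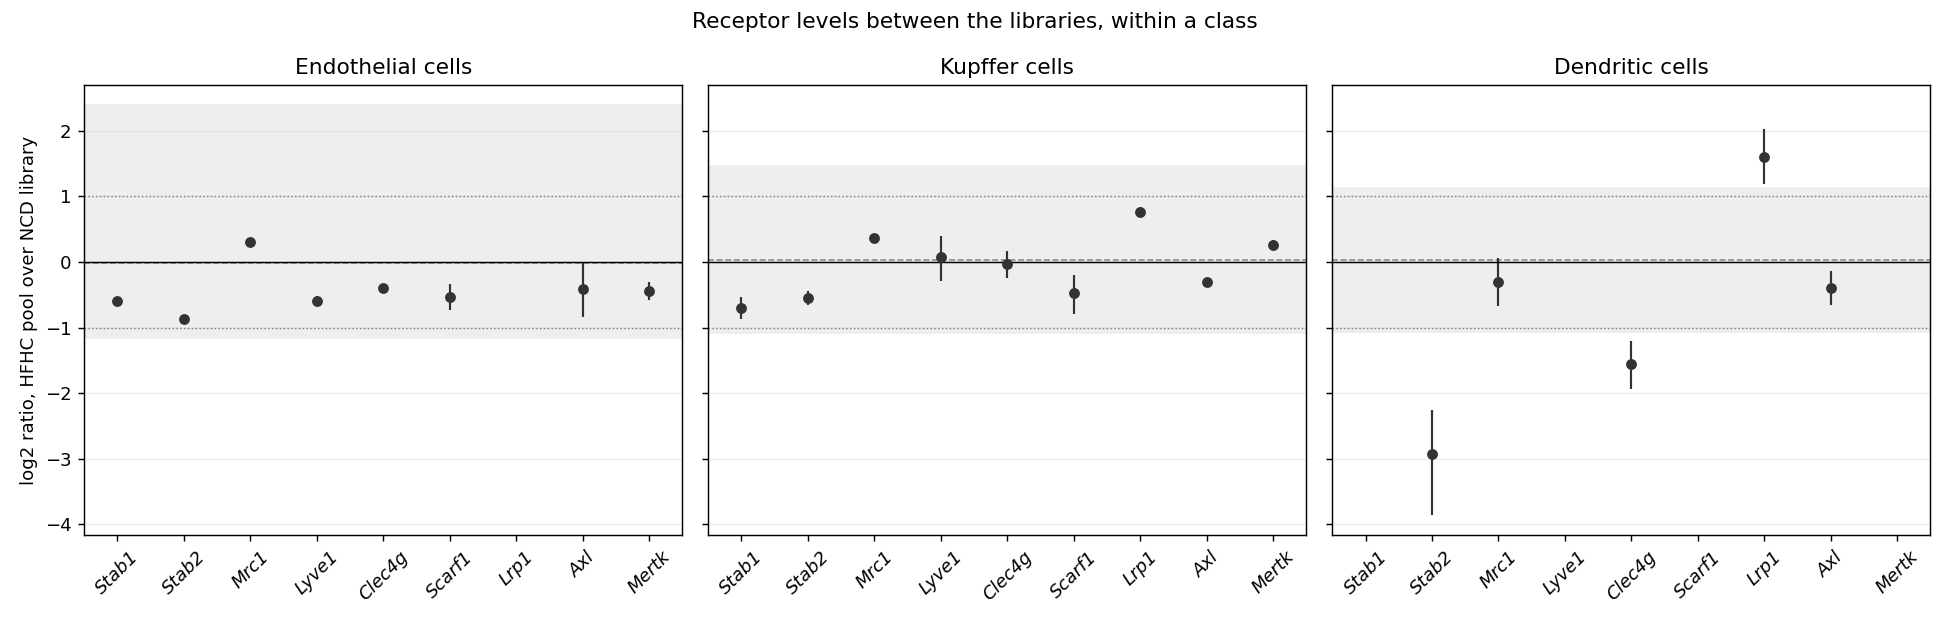
Log2 ratio of CPM in the HFHC pool over NCD livers for each gene in endothelial cells, Kupffer cells and dendritic cells, with 95% intervals for counting error; the grey band spans the central 95% of all genes tested and the dashed line is their median. In endothelial cells 7 of 8 genes lie below 0 and inside the band, Mrc1 lies above 0, and in dendritic cells Lrp1 lies above the band and Stab2 and Clec4g below it.

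In ECs 7 of 8 members were lower in the pool and Mrc1 was higher, although Axl, near the T-cell level there, ran from -0.41 to 0.20 over the alternatives. The log2 ratio was -0.87 (-0.91 to -0.82) for Stab2, -0.60 (-0.68 to -0.52) for Lyve1, -0.59 (-0.64 to -0.54) for Stab1, -0.53 for Scarf1, -0.45 for Mertk, -0.41 for Axl and -0.40 for Clec4g, and 0.30 (0.25 to 0.35) for Mrc1. All 8 lay within the range of -1.16 to 2.39 that held the central 95% of genes tested in ECs. The sum of the 18 endothelial markers in ECs was also lower, from 36444 to 24674 CPM, as the sum of hepatocyte markers went from 1858 to 8732 CPM. Different clusters also held most of the ECs of each library, as given below. The part of these shifts in the member ratios was not tested, beyond the values within clusters.

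In KCs Lrp1 was higher in the pool by 0.77 (0.69 to 0.84) on the log2 scale, Mrc1 by 0.37 (0.31 to 0.42) and Mertk by 0.26 (0.18 to 0.33), of which the last pair turned slightly below 0 under some alternatives (lowest values -0.08 and -0.09) and Lrp1 did not (lowest 0.26). Stab1 was lower at -0.70, with a range of -1.38 to -0.52 over the alternatives that passes 2-fold, Stab2 at -0.54, Scarf1 at -0.48 and Axl at -0.30. Clec4g at -0.04 and Lyve1 at 0.07 had intervals that took in 0, and over the alternative settings they ran from -1.69 to 1.26 and from -2.33 to 0.81. The central 95% of genes tested in KCs ran from -1.08 to 1.47. In the largest KC cluster alone Lrp1 was at 304 and 536 CPM, Mrc1 at 714 and 985 CPM, Mertk at 388.5 and 501 CPM and Axl at 1178 and 1038 CPM. Lrp1 was higher and Axl lower in the pool in each of the 7 KC clusters, although 1 of these had a single pool cell. The sum of the 14 KC markers in KCs was also lower in the pool, from 40620 to 30076 CPM, and its part in the member ratios was not tested. Mrc1 and Mertk were not of 1 direction, and in a KC cluster of 355 and 98 cells, 250 and 27 of them called doublets, Mrc1 was at 565 and 400 CPM and Mertk at 290 and 181 CPM. A cluster of 135 and 29 cells had 475 and 399 CPM of Mrc1 and 256 and 200 CPM of Mertk. In these clusters the KC markers went from 36038 to 12323 CPM and from 31148 to 14639 CPM, and Axl from 990 to 498 CPM and from 817 to 439 CPM.

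Lrp1 was higher in the pool across the macrophage line and in cDC2. The log2 ratio of the pool over NCD livers was 0.97 (0.763 to 1.198) in monocytes, 1.08 (0.74 to 1.46) in MoMFs and 1.28 (0.80 to 1.85) in cDC2, beside 0.77 in KCs. In cDC1 it was at 7.51 and 8.32 CPM, on 14 and 13 UMIs, and in pDCs at 4.12 and 4.14 CPM. In DCs as a whole it was 1.59 (1.195 to 2.033), at 12.2 CPM (9.43 to 15.5) and 37.1 CPM (32.0 to 42.8). DCs of the pool held a larger part of cDC2, 235 of 680 cells against 250 of 1288, so that the DC value mixes levels with makeup. In T cells Lrp1 was at 6.52 and 4.42 CPM and in ECs at 7.32 and 7.66 CPM. In these classes Lrp1 was at a few CPM in both libraries.

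The lower DC values of the pool for Stab2 (-2.93) and Clec4g (-1.55) had counterparts in T cells, where the ratios were -1.75 for Stab2, -1.56 for Clec4g and -1.11 for Stab1. Over the alternatives the DC values ran from -3.04 to -1.59 for Stab2 and from -1.70 to -1.03 for Clec4g. Markers of KCs in DCs went from 891 to 171 CPM and markers of ECs from 493 to 224 CPM, and in T cells KC markers went from 422 to 174 CPM and EC markers from 467 to 271 CPM. The part of these marker UMIs in the ratios was not tested.

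Levels differed among clusters of ECs. In NCD livers 777 ECs lay in cluster 0, 823 in cluster 1, 264 in cluster 2, 211 in cluster 3 and 162 in cluster 4, and in the pool 137, 26, 206, 140 and 32. Wisp1 and Bmp6 were among the leading genes of cluster 0 over other ECs, and cluster 1 was shallow, with a median of 1193 UMIs in NCD livers. Hepatocyte genes led cluster 2 among ECs, where 180 NCD cells and 0 pool cells were called doublets. The hepatocyte markers summed there to 9723 CPM in NCD livers and 18533 CPM in the pool. Clusters 3 and 4 carried pericentral markers (Rspo3, Wnt9b) and periportal markers (Ntn4, Msr1). Cluster 5, of 73 and 53 cells, was led by T cell genes (Ccl5, Trac, Cd3e), and 56 and 0 of its cells were called doublets.

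Stab2 was lower and Mrc1 higher in the pool in each of these 5 clusters. Stab2 was at 2819 CPM in NCD livers and 1792 CPM in the pool in cluster 0, at 2541 and 1669 CPM in the pericentral cluster and at 1797 and 1170 CPM in the periportal cluster. Mrc1 was at 1657 and 2311 CPM, 1629 and 2129 CPM, and 1343 and 1623 CPM in the same clusters. Stab1 was likewise lower in the pool in each of the 5, for example at 1129 and 828 CPM in the periportal cluster, which was also the lowest of the 5 for Stab1 in both libraries. The ratios of Stab1, Stab2 and Mrc1 thus had the same direction within clusters as over all ECs.

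Lyve1 and Clec4g did not behave this way. In cluster 0 Lyve1 was at 1155 CPM (1110 to 1202) in NCD livers and 767 CPM in the pool, in the pericentral cluster at 571 CPM (506 to 642) and 614 CPM (558 to 675), and in the periportal cluster at 278.5 CPM (233 to 331) and 596 CPM (489 to 720). Its lower value over all ECs of the pool was therefore not found in the periportal cluster, where it was higher, on 32 pool cells. Clec4g was at 4884 and 5244 CPM in cluster 1, of 26 pool cells, 3713 and 3639 CPM in cluster 3 and 3496 and 3539 CPM in cluster 4, close in both libraries. It was lower in the pool in clusters 0 and 2, at 4745 and 4159 CPM and at 3710 and 2603 CPM. Mertk ranged from 215 to 272 CPM over the 5 clusters of NCD livers and from 145 to 226 CPM in the pool.

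**Figure D5:**
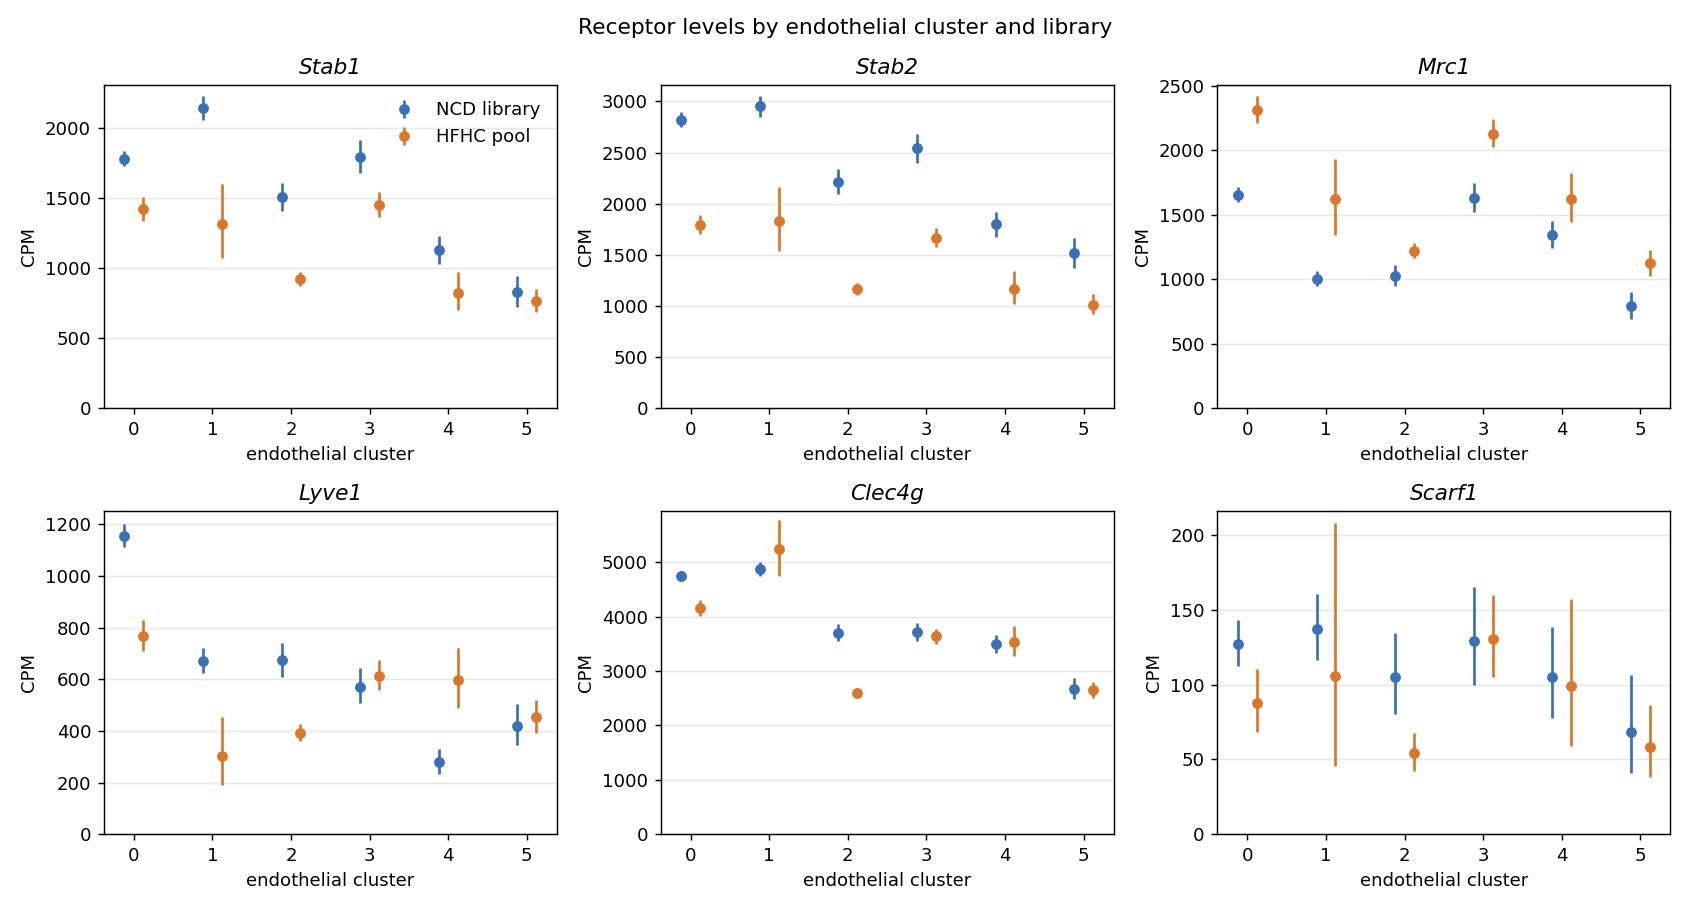
Level (CPM) of Stab1, Stab2, Mrc1, Lyve1, Clec4g and Scarf1 in endothelial clusters 0 to 5, those with at least 20 cells in each library, with 95% intervals for counting error. Mrc1 is higher and Stab1 and Stab2 lower in the HFHC pool in every cluster drawn, while Lyve1 is lower in the pool in cluster 0 (1155 and 767 CPM) and higher in cluster 4 (278.5 and 596 CPM). T cell genes lead cluster 5, where 56 of 73 NCD cells were called doublets.

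Single ECs differed in how evenly they carried the members. In ECs thinned to 2000 UMIs, 1205 cells of NCD livers and 578 of the pool, the variance of Lyve1 UMIs was 3.15 and 2.99 times the mean, and a UMI was found in 56.3% and 41.3% of cells where an even Poisson spread of the same mean gives 82.7% and 63.7%. The ratio of variance to mean was 1.63 and 1.57 for Stab1, 1.87 and 1.71 for Stab2, 1.47 and 2.12 for Mrc1, and 2.41 and 2.44 for Clec4g. For Scarf1, Axl and Mertk it stayed between 1.11 and 1.17. Lyve1 was thus patchy between ECs at a depth at which Stab2 was read in 95.4% and 86.9% of them. In thinned KCs Axl was at 1.13 and 1.42, and Clec4g at 2.84 and 3.51 and Lyve1 at 1.92 and 3.61. The part of endothelial marker UMIs in these KC values was not tested.

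Most sinusoidal cells held UMIs of several of the 9 genes. At least 3 members had a UMI in 97.9% and 94.98% of thinned ECs and in 74.6% and 69.3% of thinned KCs, and at least 1 in 99.8% and 100% of ECs and 98.8% and 93.9% of KCs. In thinned T cells, 1305 and 2412 cells, the shares were 0.766% and 0.166% for at least 3 and 15.7% and 8.997% for at least 1. Within ECs the stabilin pair had a Spearman's rho of 0.265 over 1205 cells and 0.337 over 578 cells, and Stab2 and Mrc1 had 0.185 and 0.387. Within KCs rho was 0.017 and 0.284 for Mrc1 and Axl, and 0.015 and 0.223 for Axl and Mertk. These correlations are weak, cells of a library share its capture and depth, and no relation is read from them.

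Each member was set beside the 13092 genes with enough UMIs by Pearson's r of log2(CPM + 1). This was done across 25 sums of cells, 1 for each named class and library with at least 50 cells. These sums share libraries and classes, and r is given as a description. Clec4g lay nearest to Mmrn2 (0.965), Robo4 (0.963) and Aqp1 (0.959), Stab2 to Lepr (0.931), Exoc3l2 (0.928) and Tie1 (0.927), and Lyve1 to Tie1 (0.927), Hoxb5 (0.913) and Stab2 (0.911). Tie1, Robo4 and Mmrn2 are endothelial genes, and Tie1 and Aqp1 were also among the endothelial markers. Stab1 lay nearest to Cracr2b (0.941), Plxna4 (0.927) and Bvht (0.927), and Scarf1 to Cracr2b (0.935), Mrc1 (0.927) and Itga9 (0.917). Mrc1 lay nearest to Dab2 (0.946), Clec1b (0.943) and Itga9 (0.936), and Mertk to Vcam1 (0.959), Clec1b (0.958) and Itga9 (0.940), genes found in ECs and KCs alike. Lrp1 lay nearest to Fcgr1 (0.945) and Adgre4 (0.937), and Axl to Fcgr1 (0.955), Adgre4 (0.948) and Abca9 (0.946). Fcgr1 and Adgre4 are genes of macrophages and monocytes. Among the members r was highest for Mrc1 with Scarf1 (0.927), Mrc1 with Mertk (0.921) and Lrp1 with Axl (0.917), and it was -0.204 for Clec4g with Lrp1.

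The ligand genes of the TAM receptors were higher in ECs than in KCs. Gas6 was at 168 CPM in ECs and 11.7 CPM in KCs of NCD livers and at 200 and 8.83 CPM in the pool, log2 ratios of 3.83 and 4.47. Pros1, the gene of protein S, was at 450 and 77.1 CPM and at 336 and 56.4 CPM, ratios of 2.55 and 2.57. Of the 3 genes of that list, Tyro3 had too few UMIs for a value, so 2 of 2 tested were higher in ECs in both libraries, where 19.0% and 22.5% of all genes were.

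Other endocytic receptors were counted over lists in the same way. Of all genes tested, 19.0% in NCD livers and 22.5% in the pool were past 2-fold higher in ECs, and 14.4% and 13.9% lower. Of the sinusoidal lectins and Fc receptors, 3 of 10 tested were past 2-fold higher in ECs and 3 of 10 lower in NCD livers, and 4 and 2 of 6 in the pool. Fcgr2b, the inhibitory Fc receptor that clears immune complexes, was at 4780 CPM in ECs and 74.6 CPM in KCs of NCD livers, and Pla2r1, a relative of the mannose receptor, at 88.3 and 0.952 CPM. The class A list had 0 of 5 higher and 3 of 5 lower in NCD livers and 0 and 4 of 5 in the pool, among them Marco (9.88 CPM in ECs, 537 CPM in KCs) and Cd163 (17.2 and 917 CPM), which were also used to name KCs, so that their side is no finding. The class B list had 1 of 5 higher in both libraries, the fatty acid receptor Cd36 at 1169 and 343 CPM in NCD livers, and 1 of 5 and 2 of 5 lower. The adaptors had 0 of 11 and 1 of 11 higher and 0 lower in both. Of the receptors and bridges for dying cells, 1 of 7 was higher in ECs in both libraries, the bridge Mfge8 at 122 and 2.74 CPM in NCD livers, and 6 of 7 were lower. Timd4 and C1qa of this list and Clec4f of the lectins were also KC markers, so that their side is no finding either.

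Some of these genes lay past 2-fold between the libraries. In KCs these were 2 of 5 tested in the class A list, 2 of 8 lectins and Fc receptors, 2 of 6 receptors and bridges for dying cells and 1 of 11 adaptors, beside 5.09% of all genes higher and 3.26% lower, and 0 of 5 in the class B list and 0 of 2 TAM ligands. In ECs they were 2 of 4 in the class A list and 3 of 7 lectins and Fc receptors, beside 9.87% higher and 4.25% lower, and none in the class B, TAM ligand, dying cell and adaptor lists. Cd163, Cd5l, C1qa and Clec4f among them were also KC markers. In KCs Colec12, a class A receptor, was at 18.4 CPM in NCD livers and 97.1 CPM in the pool, and the endocytic adaptor Dab2 at 547 and 129 CPM. Dab2, whose pattern over the classes was most like that of Mrc1, was therefore lower in KCs of the pool (-2.08) while Mrc1 was higher (0.37). In ECs Asgr1 and Asgr2, the hepatocyte asialoglycoprotein receptor, were higher in the pool, at 13.7 and 59.1 CPM and at 6.22 and 26.4 CPM, beside the higher sum of hepatocyte markers.

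Cells left out by the limits held many of the members' UMIs in the pool. The 1976 cells left out of the pool held 51.9% of all UMIs of the 9 genes in that library, with 70.6% of Axl, 70.9% of Mertk, 63.3% of Lrp1 and 60.3% of Mrc1 but 17.8% of Clec4g. In NCD livers 7388 cells left out held 4.60%. The upper limit of 4000 genes removed 814 cells of the pool and 68 of NCD livers, and without it the pool had 1094 KCs in place of 525.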

How the data were processed

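Single liver cells of mice were measured in 1 NCD library and 1 HFHC pool, and the other sample, the library of sample tags of the pool, has no counts of its own here. Per the file headers, the deposited counts are UMIs per gene and cell after error correction (RSEC), made by the authors with the BD Rhapsody WTA Analysis Pipeline 1.10.1 on GRCm38 and GENCODE vM19, and the submitters' processing notes also name Seurat. The counts are neither scaled nor filtered by gene.

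Cells with 200 to 4000 genes and at most 25% mitochondrial UMIs were kept. Genes needed a UMI in 3 cells. Libraries were normalized with SCTransform (sctransform 0.4.2, 4000 variable genes, mitochondrial share regressed out), integrated by reciprocal PCA in Seurat 5.3.0 (R 4.3.3, Matrix 1.6.5; 30 components, 20 neighbours, seed 42) and clustered at a resolution of 0.8, after the 9 members were removed. This gave 30 clusters, of which the myeloid and the endothelial sets were clustered again at 0.5. Each cluster was named for the cell type with the best marker score, which needed a mean log2 of at least 1 over other clusters and 3 markers in 10% of cells, and was left out as mixed where another type scored 2. Clusters also stayed unnamed where another type's markers led among their 10 leading genes, or where shallow cells had none of their own there. Doublets were called with Scrublet in scanpy 1.11.5 and kept. The Kupffer class comprised 7 clusters and the endothelial class 8.

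UMIs were summed per class and library and expressed as CPM. Groups were compared by the log2 of their CPM ratio after 1 UMI was added to each sum, for all genes whose UMIs reached 100 in the pair of groups. Sums and intervals were made in Python 3.11.15 with numpy 2.4.6, scipy 1.17.1 and pandas 2.3.3, and plots with matplotlib 3.10.9. The scripts were tested on simulated data with known folds. Cells are not replicates, so there is no test between libraries. The floor for a class without a UMI is 3 counts.

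The members and all lists were chosen with earlier results of these data known. The genes named are the 9 members, for each the 3 genes most like it by Pearson's r, and of related lists up to 3 past 2-fold per list and direction by size. Those lists cover class A and class B scavenger receptors, endocytic lectins and Fc receptors, TAM receptor ligands, receptors and bridges for dying cells, and adaptors. Some genes that the rule names, and 1 further list, are not reported here. Genes that lead clusters were picked once their values were known. As alternatives, results were recomputed with Scrublet doublets or cells with markers of another class taken out, classes from each cell's own markers, cells thinned to 2000 UMIs, mitochondrial UMIs limited to 10%, genes per cell without an upper limit, the members kept in the clustering, no integration, resolutions of 0.3 and 1.0, a minimum of 20 UMIs or none, and scaling by the median gene ratio. Leaving out clusters rich in doublets was added after seeing the data.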

Additional observations from a re-analysis of the deposited data

Results flagged for a closer look

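Mertk had ratios of opposite sign between the libraries in ECs and KCs. The log2 ratio of the HFHC pool over NCD livers was -0.446 in ECs and 0.257 in KCs. The difference between the classes was not tested, with 1 library for each diet, and both values were under 2-fold. Over the alternatives the KC value ran from -0.092 to 0.406, so its sign was not held, and Mertk was lower in the pool in 3 of the 7 KC clusters. MoMFs, which also carry Mertk, were at 291 and 302 CPM.

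Cells that the limits on genes and mitochondrial UMIs left out also held UMIs of the 9 members. These came to 5862 UMIs in NCD livers and 58174 UMIs in the pool. In the pool the cells left out stood at 2918 CPM for the 9 genes together and the kept cells at 1037 CPM, and in NCD livers at 1392 and 2454 CPM.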

How the results depend on the processing

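The counts of members past 2-fold between ECs and KCs and, in ECs, between the libraries stayed within 1.5 times their values under all 14 alternatives, and over all comparisons 86 counts did so and 12 did not. For DCs over KCs the count of members higher went from 0 to 1 in each library with clusters rich in doublets left out (Clec4g), an alternative chosen after seeing the data. For KCs of the pool over those of NCD livers it went from 0 to 1 without Scrublet doublets, and to 2 without cells that held markers of another class, with classes from each cell's own markers and without clusters rich in doublets. For DCs it went from 3 to 1 in thinned cells, 0 with classes from own markers, 7 at a minimum of 20 UMIs and with no minimum, and 5 with no upper limit on genes and at a resolution of 0.3. Of the ratios of single members, 271 moved beyond their counting interval, 504 did not, and 3 that had been past 2-fold changed sign. Ratios under 2-fold changed sign too, so that 10 ratios of a member took both signs over the settings. For DCs over KCs in the pool Clec4g went to 1.29 without clusters rich in doublets and 0.099 at a resolution of 0.3, and Lyve1 in NCD livers went to 0.085 at that resolution. The cause was not tested. No paired analysis was possible because each condition has 1 library and no test was made. At the depth of these cells, levels of a few CPM cannot be told from background.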
